A study of Mus musculus with 5 samples.

Results

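Airway cartilage genes were followed through whole-lung RNA of 5 groups of mice. The members are 7 gene symbols, Acan, Comp, Hapln1, Matn1, Matn3, Sox9 and Chad, found by exact match among the 23183 symbols of each deposited count table. They were chosen by their measured levels over these same 5 libraries, so every value and comparison of them is a description, with no test. Chad is set apart from the other 6, because its levels took another order over the groups. After a filter on low values (an average of 1 CPM or more across libraries, where CPM is the count scaled to a common library total), 14305 genes counted as measured. Among the members, 5 of 7 passed it, and Matn1 and Matn3 did not, although both are described below.

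The study compared lungs of female wild-type (WT) BALB/c mice, with 1 sequencing library per group. Control mice had no treatment per the labels, and a second group received PM10, inhalable airborne particulate matter, into the nose 4 times within 2 weeks. The other 3 groups all received PM10 together with ovalbumin (OVA), a protein allergen that was first injected into the abdominal cavity and later given into the nose. Of these, PM10/OVA had no further treatment, PM10/OVA/CPX also received a chitinase-1 inhibitor (CPX) by 6 injections spread over 3 weeks, and PM10/OVA/Dex received dexamethasone (Dex), a synthetic glucocorticoid, by 3 injections during the last week. Mice were killed 2 days after their last challenge. The last 2 groups are called CPX and Dex below. The sources used here do not give doses, ages, whether a library held 1 animal or a pool, or how much trachea and main bronchus was kept with the lung. With no replicates, a difference is between libraries, and the intervals below cover counting error only.

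Cartilage is a tissue in which scattered cells, the chondrocytes, sit in a matrix of their own making. Its compressive stiffness comes from aggrecan, a proteoglycan whose sulphated sugar chains hold water, tied to hyaluronan by link protein and trapped in a network of cartilage collagens. The transcription factor SOX9 switches on these matrix genes in chondrocytes and is also made by some epithelial cells. In mice, airway cartilage supports the trachea and the main bronchi rather than the small airways.

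All 7 members lie on the plus strand in GRCm38 (mm10), the build the submitters name, and are protein-coding in the GENCODE M21 annotation. Acan spans chromosome 7 from 79053483 to 79115099, Comp chromosome 8 from 70373558 to 70382066, Hapln1 chromosome 13 from 89539796 to 89611652, and Matn1 chromosome 4 from 130944385 to 130955475. Matn3 spans chromosome 12 from 8947929 to 8972028. Sox9 and Chad share chromosome 11, Sox9 from 112782224 to 112787760 and Chad from 94565047 to 94569127. Counts were per gene, so exons, introns and untranslated regions were not told apart.

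Promoter sequences were read beside the levels, and none of the motifs looked for was in every window given. RefSeq windows (GRCm38.p6) were given for 5 of the 7 members, Acan, Hapln1, Matn1, Matn3 and Chad. The 250 bases before the RefSeq start are printed for Acan (chr7:79052976-79053225), the most abundant of the 6, for Hapln1 (chr13:89540386-89540635), its partner in the same aggregate, and for Chad (chr11:94564797-94565046), whose levels differed from theirs. RefSeq and GENCODE place the starts of Acan and Hapln1 at different bases. All 3 are on the plus strand and run 5′ to 3′, and capitals mark matches on either strand to GGGCGG (the GC box), TATAAA (the TATA box) or AACAAT (a SOX-type motif).
Acan: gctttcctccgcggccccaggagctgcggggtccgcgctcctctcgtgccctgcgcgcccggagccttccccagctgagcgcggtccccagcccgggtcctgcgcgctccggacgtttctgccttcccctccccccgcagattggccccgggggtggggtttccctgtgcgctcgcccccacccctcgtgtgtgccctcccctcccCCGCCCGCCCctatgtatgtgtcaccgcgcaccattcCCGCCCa
Hapln1: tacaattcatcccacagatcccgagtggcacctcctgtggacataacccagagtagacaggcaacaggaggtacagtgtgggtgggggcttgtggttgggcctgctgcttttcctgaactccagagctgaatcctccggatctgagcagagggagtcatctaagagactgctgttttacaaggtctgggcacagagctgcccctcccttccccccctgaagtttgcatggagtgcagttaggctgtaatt
Chad: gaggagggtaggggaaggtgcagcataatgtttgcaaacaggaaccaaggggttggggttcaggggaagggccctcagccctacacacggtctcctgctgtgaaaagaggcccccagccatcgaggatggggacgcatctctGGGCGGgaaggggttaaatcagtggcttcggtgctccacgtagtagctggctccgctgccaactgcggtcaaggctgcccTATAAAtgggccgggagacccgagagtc
The Acan window is rich in G and C (74.4%, against a median of 52.4% over all 32851 mouse promoter windows) and holds GGGCGG on the minus strand 3 times, of which 2 overlap. The Chad window (60.4% G and C) holds 1 TATAAA, which starts 28 bases before the RefSeq start, and 1 GGGCGG. No match to any of the 3 motifs is in the Hapln1 window (54.4%). Of the windows not printed, Matn1 (62%) holds 1 GGGCGG on the minus strand and Matn3 (65.2%) holds 3 on the plus strand, each overlapping the next. Neither of these 2 windows holds TATAAA, and AACAAT is in none of the 5 windows. Among all windows of the same 250 bases, GGGCGG was in 32.7%, TATAAA in 12.4% and AACAAT in 9.42%. Such matches are descriptions of letters and do not show that a factor binds.

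The 6 members together were far more abundant in the control library than in any other. Their counts summed to 1109 in control, 98 after PM10, 30 after PM10/OVA, 46 in CPX and 93 in Dex. In CPM the sums were 63.9, 8.12, 1.89, 3.67 and 7.82. PM10 and Dex held 12.7% and 12.2% of the control sum, CPX 5.74%, and PM10/OVA 2.96%. Against control, the sum was 7.88-fold lower in PM10 (95% counting interval 6.40 to 9.79), 33.8-fold lower in PM10/OVA (23.5 to 50.3), 17.4-fold lower in CPX (13.0 to 23.9) and 8.18-fold lower in Dex (6.61 to 10.2). These 4 ratios share the control library. Fewer chondrocytes and less RNA per chondrocyte cannot be told apart in whole-tissue RNA, nor can a different amount of cartilage-bearing airway in a sample.

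Library totals ran from 11993222 to 16929068 counts, so 1 count was worth 0.0577 to 0.0841 CPM and the floor used for a count of 0, which is 3 counts, was 0.173 to 0.252 CPM. The tissue label was checked against 8 lung markers, which summed to between 37022 and 49497 CPM. Sftpc, the alveolar surfactant gene, was at 12728 CPM or more in each library, and the lung marker sum was 87.2%, 104%, 103% and 117% of control in PM10, PM10/OVA, CPX and Dex.

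**Figure D1:**
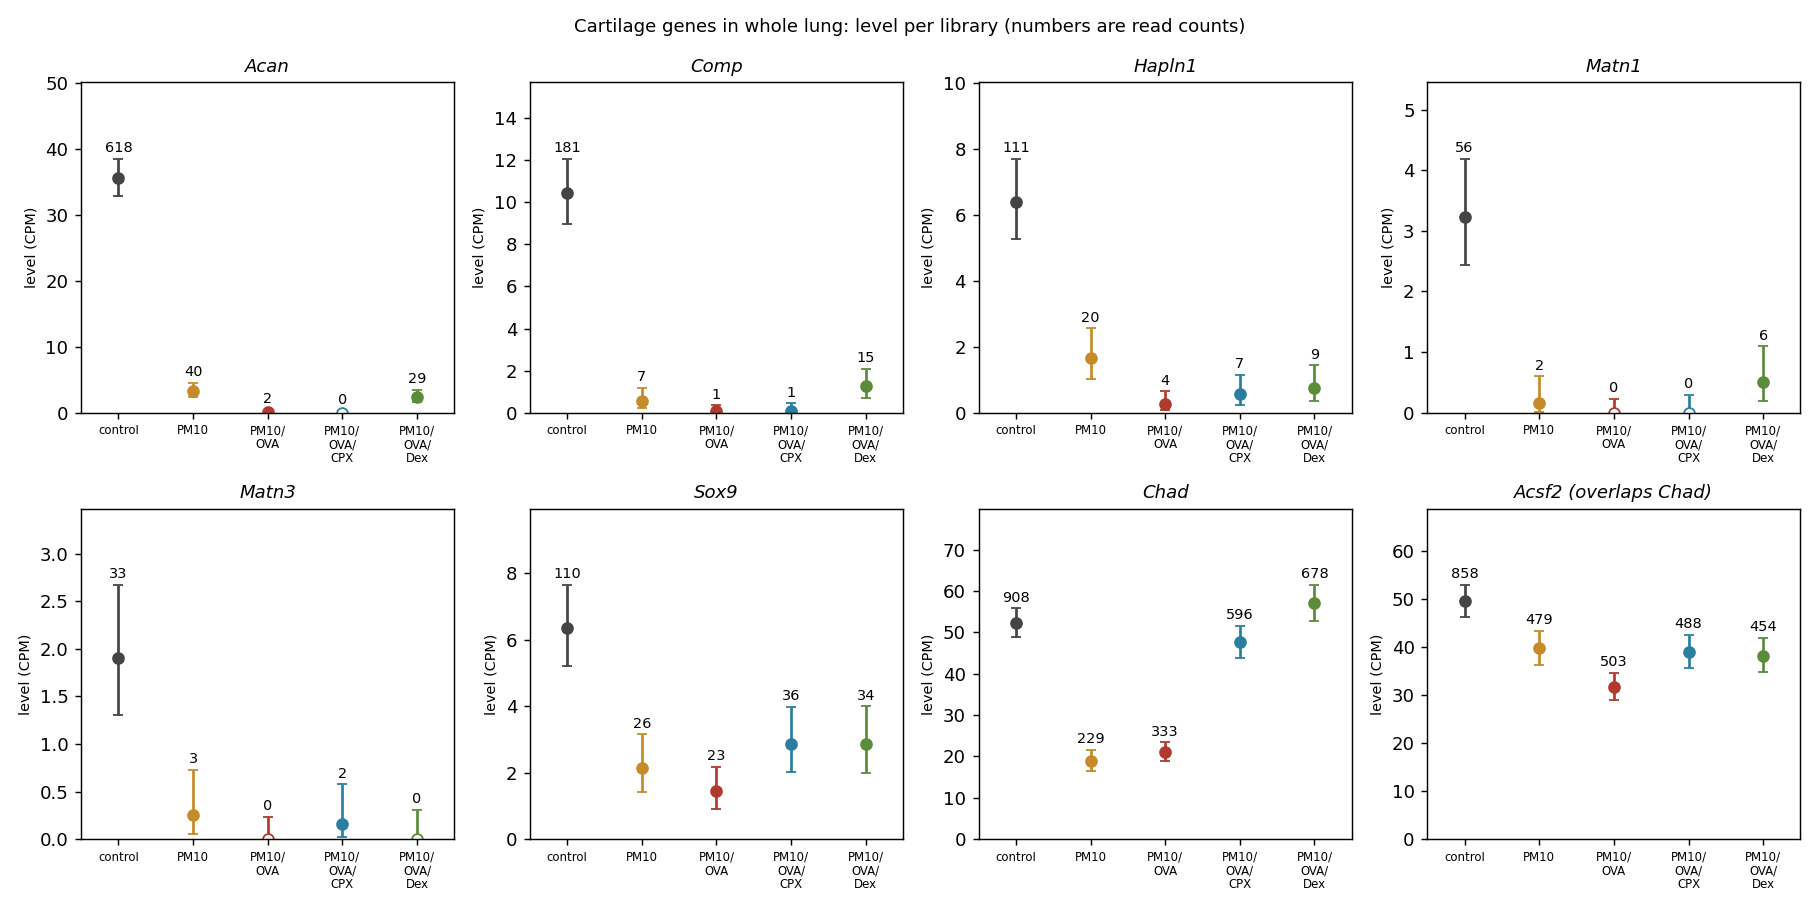
Level of each member and of Acsf2, the gene around Chad, in the 5 libraries. Points are CPM (1 library per group), bars are exact 95% counting intervals, open points are libraries with 0 counts, and the number above each point is its read count. The control library is highest for Acan, Comp, Hapln1, Matn1, Matn3 and Sox9, while Chad is at 47.6 to 57.0 CPM in control, CPX and Dex.

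Aggrecan and its link protein build the hydrated gel of cartilage. Acan, the aggrecan core protein, was at 35.6 CPM in control, 3.31 after PM10, 0.126 after PM10/OVA, 0 in CPX and 2.44 in Dex, from 618, 40, 2, 0 and 29 counts. It was thus near the floor in both PM10/OVA and CPX and at similar levels in PM10 and Dex. The level was 10.8-fold lower in PM10 than in control (7.81 to 15.2), 282-fold lower in PM10/OVA (77.9 to 2337, from only 2 counts) and 14.6-fold lower in Dex (10.1 to 22.0). In CPX it was at least 149-fold lower, with the empty library set to 3 counts (exact lower limit 121).

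Hapln1, the link protein that fastens aggrecan to hyaluronan, was at 6.40 CPM in control, 1.66 after PM10, 0.252 after PM10/OVA, 0.559 in CPX and 0.757 in Dex. Its counts were 111, 20, 4, 7 and 9. Control was again the highest library, but Hapln1 kept more of its level than Acan did in PM10, at 3.86-fold below control (2.39 to 6.57). It was 25.4-fold lower in PM10/OVA (9.63 to 94.7), 11.5-fold lower in CPX (5.38 to 29.1) and 8.46-fold lower in Dex (4.30 to 19.0). The number of Acan counts per Hapln1 count was 5.57 in control (4.54 to 6.88), 2.00 in PM10 (1.14 to 3.61) and 3.22 in Dex (1.49 to 7.74). The control and PM10 intervals do not overlap, so the members of this aggregate were not lower by an equal factor.

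Comp and the matrilins are adaptor proteins that link collagen fibrils to the rest of the matrix. Comp, cartilage oligomeric matrix protein, was at 10.4 CPM in control, 0.580 after PM10, 0.0631 after PM10/OVA, 0.0798 in CPX and 1.26 in Dex, from 181, 7, 1, 1 and 15 counts. With a single count in each of PM10/OVA and CPX, those 2 libraries cannot be ordered. Comp was 18.0-fold lower in PM10 than in control (8.56 to 45.4) and 8.27-fold lower in Dex (4.88 to 15.1). The ratios for PM10/OVA and CPX, 165 (29.3 to 6570) and 131 (23.2 to 5190), have very wide intervals.

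Matn1 encodes matrilin-1, a marker of hyaline cartilage such as that of the trachea. It was at 3.23 CPM in control, 0.166 after PM10, 0 in both PM10/OVA and CPX and 0.505 in Dex, from 56, 2, 0, 0 and 6 counts. As for Comp, Dex was next after control. The interval of the ratio of Dex to PM10 included 1 for both genes, at 0.545 to 30.9 for Matn1 and 0.835 to 6.31 for Comp. The level was 19.5-fold lower in PM10 than in control (5.15 to 165), at least 17.1-fold lower in PM10/OVA (exact lower limit 13.4), at least 13.5-fold lower in CPX (10.6) and 6.40-fold lower in Dex (2.76 to 18.2).

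Matn3, matrilin-3, was the member with the fewest counts in control. It was at 1.90 CPM there, 0.249 in PM10, 0 in PM10/OVA, 0.160 in CPX and 0 in Dex, from 33, 3, 0, 2 and 0 counts. Every library after control held 3 counts or fewer, so no order among those 4 can be read for Matn3. It was 7.66-fold lower in PM10 than in control (2.40 to 39.0), at least 10.1-fold lower in PM10/OVA (7.73), 11.9-fold lower in CPX (3.05 to 102) and at least 7.54-fold lower in Dex (5.80). Dex had no Matn3 count although it held 29 of Acan and 15 of Comp, and a count of 0 there allows a share of the 6 genes' summed counts of up to 3.89% (exact 95% limit), while the control share was 2.98%.

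Sox9, the chondrocyte transcription factor, had the smallest differences among the 6. It was at 6.34 CPM in control, 2.15 after PM10, 1.45 after PM10/OVA, 2.87 in CPX and 2.86 in Dex, from 110, 26, 23, 36 and 34 counts. No library was near the floor for Sox9, and the levels after control lay within a 2-fold range. The level was 2.94-fold lower in PM10 than in control (1.91 to 4.71), 4.37-fold lower in PM10/OVA (2.77 to 7.18), 2.21-fold lower in CPX (1.50 to 3.31) and 2.22-fold lower in Dex (1.50 to 3.36). A list of 6 epithelial genes of the distal lung (Nkx2-1, Foxa2, Etv5, Id2, Epcam and Cdh1), fixed beside it because Sox9 is known from lung epithelium too, summed to 95.4% to 104% of control in the other libraries. None of these 6 was 2-fold different from control, but single genes differed in opposite directions. Etv5 was at 179 CPM in control, 126 in CPX and 132 in Dex, and Id2 at 73.5, 123 and 90.0.

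**Figure D2:**
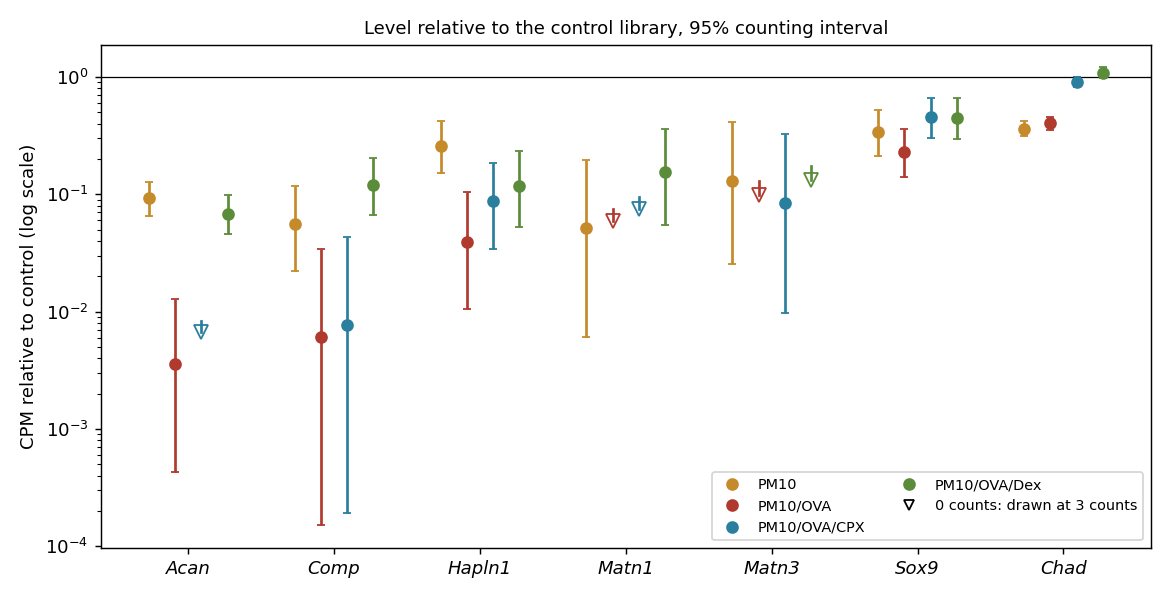
CPM of each member relative to the control library, on a log axis, with exact 95% counting intervals. The horizontal line marks the control level. Open triangles mark libraries with 0 counts, drawn at the value that 3 counts would give, with a line up to the exact limit. Acan and Comp lie lowest in PM10/OVA and CPX, Sox9 lies between 2.21-fold and 4.37-fold below the line, and Chad is near it in CPX and Dex.

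On the log2(CPM + 1) scale, which understates differences of low genes, all 6 were at least 2-fold lower than control in PM10 and in PM10/OVA, and 5 of 6 in CPX and in Dex. Sox9 was the exception in both, with log2 ratios of -0.92 and -0.93. The background was 2.04% of all 14305 measured genes in PM10, 2.73% in PM10/OVA, 2.99% in CPX and 2.01% in Dex. The members' median log2 ratios to control were -1.67, -2.32, -2.16 and -1.81 in that order, and -1.67, -2.20, -2.01 and -1.78 with empty libraries set to 3 counts. The medians of all measured genes lay between -0.00 and 0.02. All 6 had their highest level in control, as did 24.6% of measured genes. These contrasts chose the members, so nothing follows from the gap to the background, and with 5 CPM added in place of 1 only 2, 3, 3 and 2 of the 6 were 2-fold lower.

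The order of the levels was read from neighbouring libraries. For each of the 6, control exceeded the next library by more than counting error. Below control, the one step whose interval stayed above 1 was that of Acan from Dex to PM10/OVA, a 19.3-fold difference (4.89 to 167). Acan in PM10 and in Dex differed by 1.36-fold (0.822 to 2.27), and Sox9 in CPX and Dex by 1.01-fold (0.612 to 1.66).

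In PM10/OVA against PM10, the structural genes with enough counts to compare were lower. Acan was 26.3-fold lower in PM10/OVA than in PM10 (6.81 to 224), Comp 9.19-fold lower (1.18 to 414) and Hapln1 6.57-fold lower (2.20 to 26.4). Sox9 differed by 1.48-fold with an interval that includes 1 (0.814 to 2.72), while Matn1 and Matn3 were at or under 3 counts in both. On the log2(CPM + 1) scale, 2 of 6 were at least 2-fold lower, Acan (-1.94) and Hapln1 (-1.09), against 1.27% of measured genes. The members' median was -0.47 (-0.83 with empty libraries at 3 counts and members at or under 3 counts in both left out), and that of all measured genes 0.00. With 5 CPM added, none of the 6 was 2-fold lower.

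The chitinase-1 inhibitor library held few structural cartilage counts. In CPX against PM10/OVA, Acan, Comp, Matn1 and Matn3 were at or under 3 counts in both, so no fold is given. Hapln1 was 2.22-fold higher (0.563 to 10.3), a ratio within counting error. Sox9 was 1.98-fold higher (1.14 to 3.50) and made up 36 of the 46 counts, so the 1.94-fold higher sum of the 6 (1.20 to 3.18) was mostly Sox9. None of the 6 was at least 2-fold higher or lower on the log2(CPM + 1) scale, where 0.636% of measured genes were 2-fold higher. The members' median was 0.12, or 0.49 over Hapln1 and Sox9 alone, the only members with over 3 counts in either library.

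The dexamethasone library held more aggrecan and Comp transcripts than PM10/OVA. Acan was 19.3-fold higher (4.89 to 167) and Comp 20.0-fold higher (3.08 to 842), from 2 counts and 1 count in PM10/OVA. Matn1 was at least 2.67-fold higher (exact lower limit 1.57), Sox9 1.97-fold higher (1.13 to 3.50) and Hapln1 3.00-fold higher with an interval that includes 1 (0.837 to 13.3). Matn3 was at 0 in both. The sum of the 6 was 4.13-fold higher (2.71 to 6.46). On the log2(CPM + 1) scale 2 of 6, Acan (1.61) and Comp (1.09), were at least 2-fold higher, against 1.2% of measured genes, and the members' median was 0.62. With 0.25 CPM added the count was 4 of 6, and with 5 CPM it was 0.

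Dexamethasone and the inhibitor were then set side by side. Acan was at least 10.2-fold higher in Dex than in CPX (exact lower limit 7.76), Comp 15.8-fold higher (2.43 to 665) and Matn1 at least 2.11-fold higher (1.24). Hapln1 (1.35-fold higher, 0.449 to 4.28) and Sox9 (1.01-fold lower, 0.612 to 1.66) differed within counting error. The sum of the 6 was 2.13-fold higher (1.48 to 3.10), 2 of 6 (Acan 1.78 and Comp 1.07 on the log2 scale) were at least 2-fold higher against 1.06% of measured genes, and with 5 CPM added the count was 0. Both treatment comparisons against PM10/OVA share that library, and none has a replicate check.

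The make-up of the cartilage signal differed between libraries along with its size. Acan gave 55.7% of the 6 genes' counts in control (exact 95% interval 52.7 to 58.7), 40.8% in PM10 (31.0 to 51.2), 6.67% in PM10/OVA (0.818 to 22.1), 0% in CPX (up to 7.71%) and 31.2% in Dex (22.0 to 41.6). Sox9 gave 9.92% (8.22 to 11.8), 26.5% (18.1 to 36.4), 76.7% (57.7 to 90.1), 78.3% (63.6 to 89.1) and 36.6% (26.8 to 47.2) in the same order. In each library other than control, the interval lies apart from that of control for both genes, with Acan below and Sox9 above it. Within the structural genes, Acan counts per Col2a1 count were 1.86 in control (1.62 to 2.13), 1.74 in PM10 (1.02 to 3.04) and 1.07 in Dex (0.614 to 1.89), 3 overlapping ranges. Acan counts per Comp count were 3.41 in control (2.89 to 4.05), 5.71 in PM10 (2.53 to 15.1) and 1.93 in Dex (up to 3.88).

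**Figure D3:**
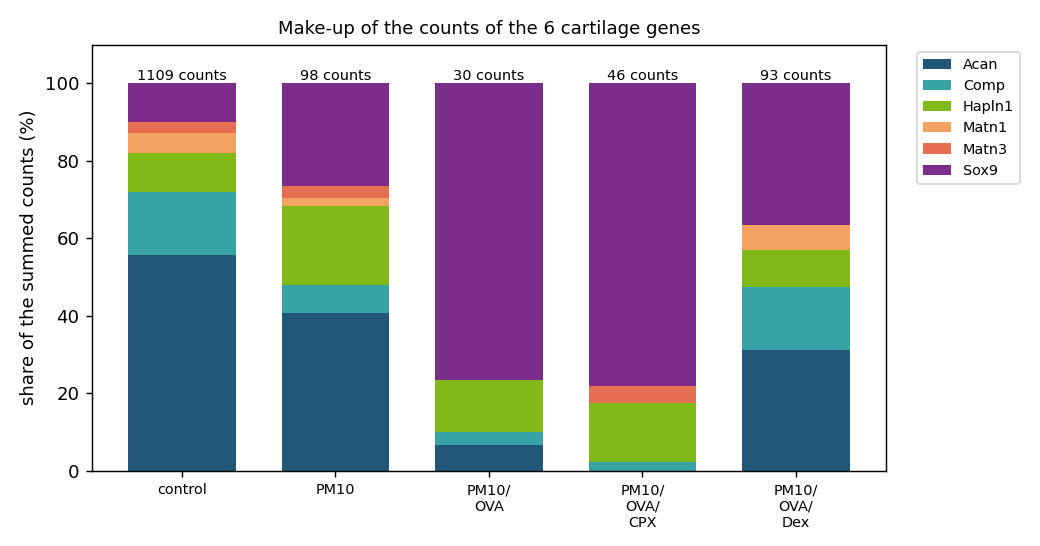
Share of each of the 6 genes in their summed read counts, per library, with the summed count above each bar. Acan takes 55.7% of 1109 counts in control, and Sox9 takes 76.7% of 30 counts in PM10/OVA and 78.3% of 46 counts in CPX.

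Chad encodes chondroadherin, a leucine-rich repeat protein of the cartilage matrix that binds collagen and cell-surface integrin. It was at 52.4 CPM in control, 19.0 after PM10, 21.0 after PM10/OVA, 47.6 in CPX and 57.0 in Dex, from 908, 229, 333, 596 and 678 counts. The levels formed 2 tiers, with control and both treated libraries high and PM10 and PM10/OVA low. Chad was 2.76-fold lower in PM10 than in control (2.38 to 3.20) and 2.49-fold lower in PM10/OVA (2.20 to 2.83). It was 1.10-fold lower in CPX (0.991 to 1.22) and 1.09-fold higher in Dex (0.984 to 1.20), both within counting error of control. Against PM10/OVA, Chad was 2.27-fold higher with the inhibitor (1.98 to 2.60) and 2.71-fold higher with dexamethasone (2.38 to 3.10), and Dex exceeded CPX by 1.20-fold (1.07 to 1.34).

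Chad and Acan differed in proportion between control and the other libraries. Counts of Chad per count of Acan were 1.47 in control (1.33 to 1.63), 5.72 in PM10 (4.08 to 8.22), 166 in PM10/OVA (45.7 to 1381) and 23.4 in Dex (16.1 to 35.2), while CPX had 596 Chad counts and none of Acan. The control interval lies below the other 3. Per kilobase of exon, the control library held 31.2 CPM of Chad, 4.77 of Acan, 3.52 of Comp, 1.61 of Matn1, 1.53 of Sox9, 1.08 of Hapln1 and 0.631 of Matn3. On this length-adjusted scale Chad was the most abundant member in control too, and it was at 11.3, 12.5, 28.3 and 33.9 CPM per kilobase in PM10, PM10/OVA, CPX and Dex.

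The Chad locus lies within another gene. Acsf2, a mitochondrial acyl-CoA synthetase family member (chromosome 11, 94557102 to 94601871), is on the opposite strand, surrounds Chad and shares 0 exonic bases with it. Acsf2 was named after its values were seen. It was at 49.5 CPM in control, 39.7 after PM10, 31.7 after PM10/OVA, 39.0 in CPX and 38.2 in Dex, a narrower range than that of Chad. Chad counts per Acsf2 count were 1.06 (0.963 to 1.16), 0.478 (0.407 to 0.561), 0.662 (0.575 to 0.762), 1.22 (1.08 to 1.38) and 1.49 (1.32 to 1.69), so Chad did not keep a fixed ratio to the gene around it. The library kit marks strand, but whether the counting used strand is not given, so reads from introns of Acsf2 and reads from Chad may not be fully separated. Hapln1 likewise overlaps a processed pseudogene, Gm8546, on the opposite strand with 0 shared exonic bases.

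Other cartilage genes came from lists written with earlier results of these data known, and are descriptions too. The 7 cartilage collagens, which form and dress the fibrils of the matrix, were all highest in control. They summed to 127 CPM in control, 19.7 after PM10, 2.21 after PM10/OVA, 2.00 in CPX and 16.0 in Dex, that is 15.5%, 1.74%, 1.57% and 12.6% of control. Of the 6 that passed the filter, 5, 6, 6 and 6 were at least 2-fold lower than control in those 4 libraries, with medians of -2.51, -3.32, -3.39 and -1.98. In PM10/OVA against PM10, 4 of 6 were at least 2-fold lower (median -1.33), and in Dex against PM10/OVA and against CPX 4 of 6 were at least 2-fold higher (1.41 and 1.46). All 7 collagens were higher in Dex than in both PM10/OVA and CPX, as were 4 of the 6 members and 33.9% of measured genes.

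Col2a1, the main collagen of hyaline cartilage, had 333, 23, 0, 1 and 27 counts in control, PM10 alone, PM10/OVA, CPX and Dex. Col10a1, the collagen of hypertrophic chondrocytes, had 1212, 59, 1, 2 and 82, so the same 2 libraries were near 0 as for Acan. Col10a1 was 14.3-fold lower in PM10 than in control (11.0 to 18.9) and 10.1-fold lower in Dex (8.10 to 12.8). Col11a1, a fibril-nucleating collagen, had 201, 16, 1, 1 and 28 counts and Col9a2, a fibril-surface collagen, 147, 7, 2, 0 and 18. Col11a2 and Col9a3 were less alike. Col11a2 had 187, 114, 21, 14 and 22 counts and was only 1.14-fold lower in PM10 than in control (0.900 to 1.45), but 7.13-fold lower in PM10/OVA than in PM10 (4.45 to 12.0). Col9a3 had 84, 18, 10, 7 and 9 counts, 3.25-fold lower in PM10 than in control (1.94 to 5.74). Col9a1, below the filter, had 39, 1, 0, 0 and 4.

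The other cartilage matrix genes were mixed. Their list also holds a collagen gene, Col27a1, at 21.3 CPM in control and 13.9 in PM10. Of 17 with a row, 13 were highest in control, and of the 13 measured 5, 6, 5 and 3 were at least 2-fold lower than control in PM10, PM10/OVA, CPX and Dex (medians -0.63, -0.81, -0.94 and -0.59). Lect1, chondromodulin, a cartilage protein that inhibits vessel growth, had 111, 3, 0, 2 and 12 counts and Ucma, a secreted cartilage protein, 88, 4, 0, 0 and 17, which is the pattern of Comp. Clec3a (50, 2, 0, 0 and 9) and 3110079O15Rik (23, 0, 0, 0 and 3), both below the filter, were of the same kind. Prelp, a small leucine-rich proteoglycan of many connective tissues, was at 375 CPM in control and 263 to 320 in the others. Matn4, a matrilin that is not limited to cartilage, was at 44.6 CPM in control and 56.7 in PM10, 1.27-fold higher (1.15 to 1.41), unlike Matn1 and Matn3. Cytl1, a secreted cytokine-like protein, had 2056, 530, 821, 529 and 727 counts and was 2.70-fold lower in PM10 than in control (2.45 to 2.98). Of the other measured genes, Cilp2 was at 4.09 CPM in control and 0.414 in PM10, and Vit at 4.90 and 1.33. Prg4 was at 4.44 and 1.91, Mia at 2.54 and 1.41, Fmod at 21.9 and 13.8 and Hapln3 at 2.71 and 2.49. Cilp was higher in PM10, at 5.19 CPM in control and 8.04 in PM10.

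**Figure D4:**
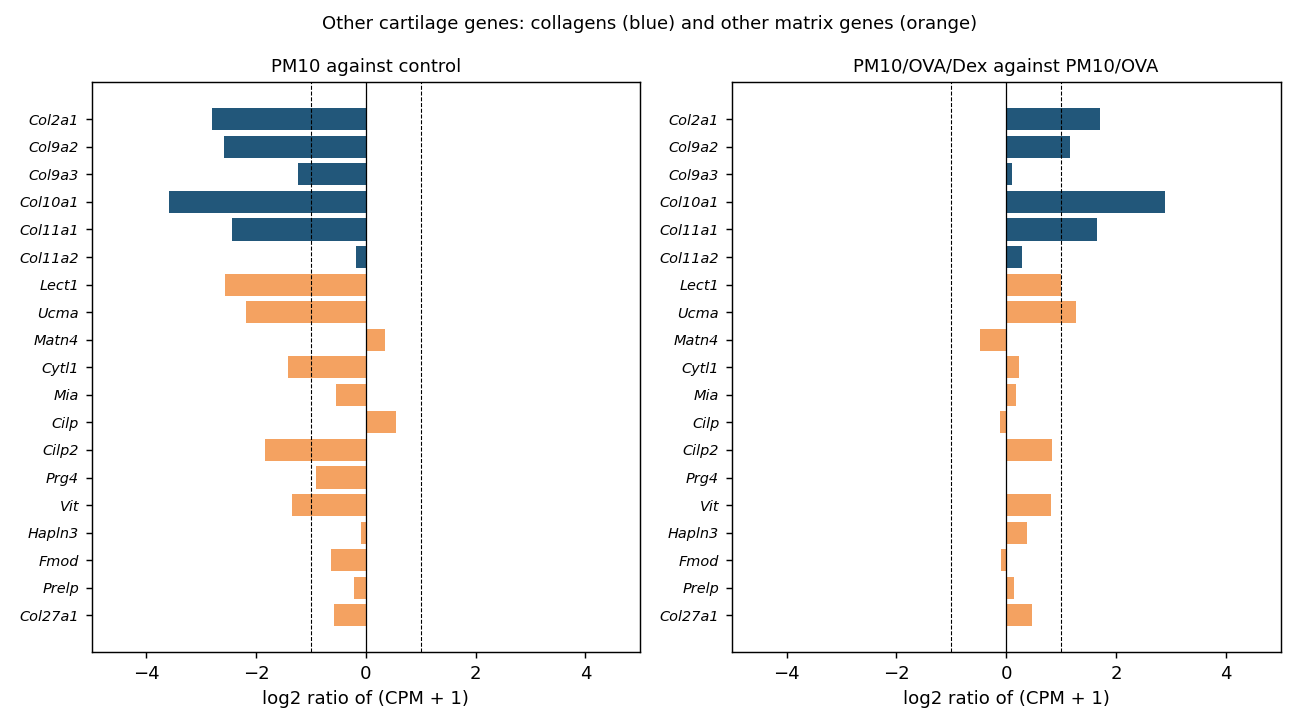
Log2 ratio of CPM + 1 for the measured cartilage collagens (blue, 6 genes) and other cartilage matrix genes (orange, 13 genes), in PM10 against control and in Dex against PM10/OVA. Dashed lines mark 2-fold, and each bar is 1 gene in a pair of single libraries. Of the collagens, 5 of 6 lie below the lower line on the left and 4 of 6 above the upper line on the right.

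Regulators of chondrocytes had smaller median differences from control than the cartilage collagens and other matrix genes. Of 12 measured, 2, 2, 3 and 1 were at least 2-fold lower than control in the 4 libraries, with medians of -0.12, -0.36, -0.43 and -0.14. Sox5 and Sox6, partners of SOX9 on cartilage enhancers that are also expressed elsewhere, were 1.50-fold (1.23 to 1.84) and 1.34-fold (1.07 to 1.67) lower in PM10 than in control, less than the 2.94-fold of Sox9. Susd5 (148, 22, 10, 3 and 22 counts) and Itga10, a collagen-binding integrin of chondrocytes (72, 13, 8, 9 and 27), were lower by 4.68-fold (2.98 to 7.70) and 3.85-fold (2.12 to 7.59) in PM10. Runx3 and Runx2 went the other way, at 8.48 and 8.71 CPM in control and 15.9 and 13.6 in PM10. Of the 12 measured regulators, 7 were lower in PM10 than in control, as were 7190 of all 14305 measured genes, a similar share. Of 8 enzymes that sulphate or build the sugar chains of aggrecan, none was 2-fold lower than control in any library (medians -0.30, 0.06, -0.10 and -0.35). Among 7 turnover enzymes, Adamts4, an aggrecan-cleaving protease, was 8.62-fold higher in PM10/OVA than in control (4.12 to 20.8) and Mmp3, a matrix protease, 3.05-fold higher (2.61 to 3.57), and none of the 7 was 2-fold lower.

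Markers of other tissues in or beside the lung and its airways were read in the same libraries. The heart-muscle list was written for cardiomyocytes of the atria and of the pulmonary veins. All 12 heart-muscle genes were highest in control and at least 2-fold lower in each other library. They summed to 3540 CPM in control and to 20.5% of that in PM10, 8.81% in PM10/OVA, 7.72% in CPX and 19.6% in Dex, the same order of PM10 and Dex above the other 2 as in the members' sum. All 9 fat-cell genes were also highest in control (297 CPM summed), with 15.9%, 11.1%, 11.1% and 30.9% of that in the other libraries. Of 7 skeletal-muscle genes, 4 were highest in control (67.3 CPM summed), and the sums were 33.0%, 16.1%, 15.7% and 32.5% of control. Ckm alone gave 977 of the 1168 control counts of that list, and Mylpf was lowest in control. Of 12 genes of large airway, basal cells and glands, 8 were highest in control (2369 CPM summed), and the sums were 22.9%, 31.5%, 51.6% and 99.0% of control. Bpifa1 alone gave 1264 CPM of that control sum. Bpifb1 and Scgb3a1 were highest in Dex, and Muc5b and Tff2 in CPX. Dex was above both PM10/OVA and CPX for 11 of 12 heart-muscle, 9 of 9 fat-cell and 8 of 12 large-airway genes.

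Single markers in these lists differed as widely as the cartilage genes. Nppa, the atrial hormone, had 10316, 56, 17, 12 and 235 counts in the order control, PM10 alone, PM10/OVA, CPX and Dex. Krt15, a basal-cell keratin, had 340, 13, 10, 11 and 74, but Tff2 of the same list went the other way, at 113, 96, 394, 991 and 555. Adipoq, the fat-cell hormone, had 625, 48, 39, 33 and 105. Defining markers at 0 were Bmp10 in PM10, PM10/OVA and Dex, Ucp1 in PM10, PM10/OVA and CPX, Lep and Krt5 in CPX, and Krt14 in Dex. Smooth-muscle genes were at 55.0% to 70.6% of control, ciliated-cell genes at 64.8% to 91.7% and lung markers at 87.2% to 117%. Markers of heart muscle and fat, and the skeletal-muscle sum, were thus lower in the same 4 libraries as the cartilage genes. Their part in the result was not tested. The large-airway sum was lower in PM10, PM10/OVA and CPX but not in Dex, where 2 of its 10 measured genes were at least 2-fold lower than control and 3 at least 2-fold higher, and its part was not tested either. Chad was at 36.2% to 109% of control in the same 4 libraries.

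**Figure D5:**
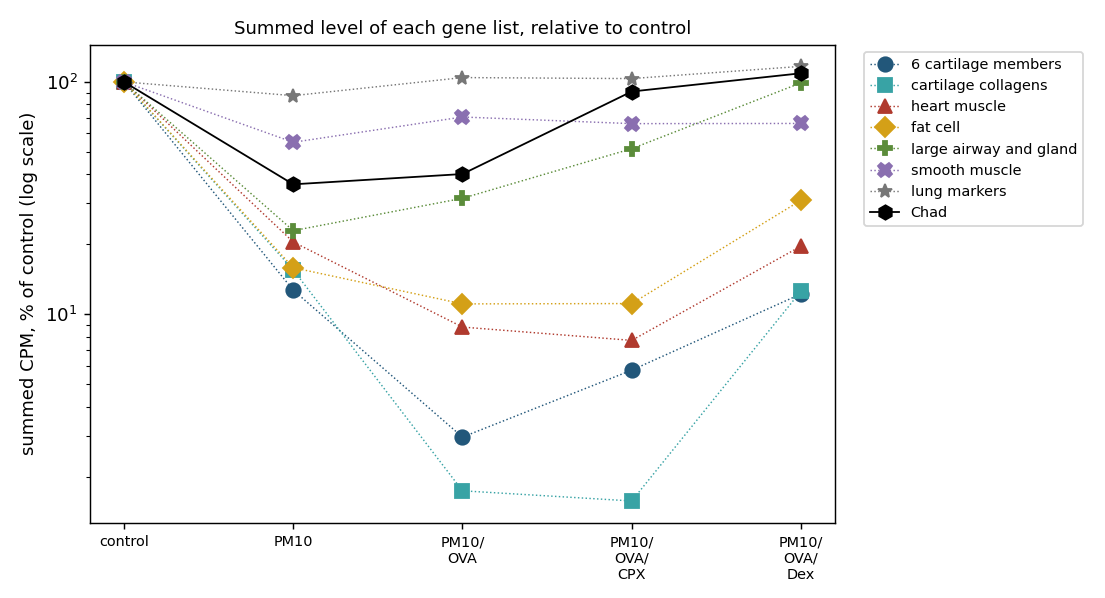
Summed CPM of each gene list as a percentage of control, on a log axis, with Chad as a single gene (1 library per group, and lines join the points of a list only to guide the eye). The 6 cartilage members, the cartilage collagens, heart muscle and fat lie between 1.57% and 30.9% of control in the other libraries, the lung markers between 87.2% and 117%, and Chad is within 1.10-fold of control in CPX and Dex.

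Genes whose profile lay nearest to the members were listed by the Euclidean distance between centred log2(CPM + 1) profiles over the 5 libraries, among 13634 measured genes. Nearest to the median profile of the 6 were Dhrs7c (distance 0.16), Trim63 (0.20), Cox7a1 (0.24), Hfe2 (0.25), Fgf12 (0.25), Apobec2 (0.27), Myo18b (0.28) and Cdh19 (0.29). Dhrs7c was at 10.7, 2.40, 1.14, 1.28 and 2.61 CPM and Trim63, a ubiquitin ligase known from muscle, at 7.61, 1.57, 0.757, 1.04 and 2.35. The members themselves lay 0.27 (Matn1), 0.55 (Hapln1), 0.80 (Matn3), 0.89 (Sox9), 0.99 (Comp) and 2.40 (Acan) from that median, so the nearest genes outside the lists lay closer than most members did. Chad was 1.74 away.

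Nearest to Chad were Rgs5 (0.30), Cyp1a1 (0.32), Lypd2 (0.35), Ces1f (0.52), Lrrc26 (0.52), Aqp3 (0.56), Gsta2 (0.61) and Galnt13 (0.61). Rgs5, a G-protein regulator known from pericytes, was at 21.9, 8.61, 8.33, 17.6 and 27.7 CPM. Cyp1a1, a cytochrome P450 induced through the aryl hydrocarbon receptor, was at 13.0, 5.88, 5.87, 12.3 and 17.5. Lypd2 was at 28.9, 11.1, 13.6, 35.5 and 32.0 CPM. Each of these 3 was lower in PM10 and PM10/OVA than in the other 3 libraries, as Chad was, and none is a cartilage gene of the fixed lists.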

How the data were processed

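Per the labels' protocols, Trizol was used to extract RNA, and 1.3 ug of it went into each NEBNext Ultra II Directional library. Reads were aligned with TopHat to mm10, per the submitters' processing notes. The sources used here do not give the aligner's version, the counting tool, its annotation or its strand setting. The authors deposited 1 table per library of raw read counts by gene symbol. Of 23183 symbols, 4774 were at 0 in all 5 libraries.

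CPM values use TMM (trimmed mean of M-values) scaling factors from edgeR 4.0.16 (R 4.3.3), which ran from 0.989 to 1.02. Folds are ratios of CPM with exact conditional (Clopper-Pearson) 95% intervals computed in Python 3.11.15 with scipy 1.17.1. A library at 0 counts was set to a floor of 3 counts, which makes the fold a bound that leaves out the error of the other library, so the exact lower limit stands beside it. No fold is given where both libraries had 3 counts or fewer. PCR duplicates cannot be told from molecules, so intervals cover counting error only, and with 1 library per group no p-value or standard error was computed. A gene was counted as 2-fold different from the log2 ratio of CPM + 1, and list counts and medians cover genes that average 1 CPM or more, except that all 6 members enter theirs. Lengths are the union of a gene's exons in GENCODE M21. The scripts were tested on simulated data.

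The members and the gene lists were chosen with earlier results of these data known. All members are named, as are up to 4 measured genes of each other list with the largest absolute ratio of PM10 to control, the measured cartilage collagens and matrix genes, and the 8 nearest genes to each profile. Genes below the filter, and those singled out by their pattern over the libraries, were chosen after their values were seen. Alternatives were DESeq2 1.42.0 size factors, library totals, added values of 0.25 or 5 CPM, no filter, and a mean of at least 5 CPM. The labels gave each sample its group.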

Additional observations from a re-analysis of the deposited data

How the results depend on the processing

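No group has a replicate, so no library could be left out and no spread between lungs is known. No paired analysis was possible because each group has 1 library. The precision is set by depth: 1 count was worth 0.0577 to 0.0841 CPM, and 5 of the 6 members held fewer than 10 counts in PM10/OVA and CPX. DESeq2 size factors, library totals and no filter left every count of genes within 1.5 times, as did TMM factors without the control library for the comparisons that leave control out, an alternative added after seeing the data. Of 252 alternative values of the members' log2 ratios, 177 stayed within the counting interval and 75 did not (60 of them with another added value). Changes of sign were sought only for ratios of at least 2-fold, and 0 were found.

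The added value moved the counts. With 0.25 CPM added, 308 genes were at least 2-fold lower in PM10/OVA than in PM10 (182 with 1 CPM), 177 were higher in CPX than in PM10/OVA (91), 294 were higher in Dex than in PM10/OVA (172) and 275 than in CPX (151), and 4 members were higher in Dex than in PM10/OVA (2). With 5 CPM added, 141, 203, 214 and 120 genes were lower than control in PM10, PM10/OVA, CPX and Dex (292, 390, 428 and 288), with 2, 3, 3 and 2 of the 6 members (6, 6, 5 and 5). The other counts with 5 CPM were 78 genes and 0 members lower in PM10/OVA than in PM10, 35 genes higher in CPX than in PM10/OVA, and 55 and 56 genes, with 0 members each, higher in Dex than in PM10/OVA and in CPX. A minimum mean of 5 CPM passed 1 of the 6, Acan. It left 146, 208, 222 and 159 genes lower than control, with 1 member each, 1 member lower in PM10/OVA than in PM10, 50 genes higher in CPX than in PM10/OVA, 106 genes and 1 member higher in Dex than in PM10/OVA, and 1 member higher in Dex than in CPX. These moves follow from how low the members are, since a larger added value shrinks the ratios of low genes and a higher minimum leaves fewer of them.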

Other observations

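Genes of tissues that adjoin cartilage were mixed. Tendon and perichondrium genes summed to 68.0%, 53.8%, 81.2% and 90.3% of control in PM10, PM10/OVA, CPX and Dex, but Ogn, a small leucine-rich proteoglycan of many connective tissues, gave 9214 of the 9570 control counts, so the sum is close to the value of that gene. Scx, the tendon transcription factor, had 181, 96, 197, 116 and 127 counts in the order control, PM10 alone, PM10/OVA, CPX and Dex, and Tnmd, a mature tendon marker, 6, 0, 1, 0 and 1. Thbs4, a relative of Comp found in tendon and muscle, had 32, 1, 7, 8 and 11, and Kera, keratocan, 5, 0, 0, 0 and 0. Mkx had 23, 3, 8, 24 and 8, with the highest level in CPX, and Angptl7 had 109, 55, 73, 37 and 53.

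Of the bone markers, Bglap, Bglap2 and Sp7 had 0 counts in all 5 libraries. Ibsp had 6, 0, 1, 0 and 0, and Dmp1 had 0, 0, 5, 0 and 1. Phex, an endopeptidase gene known from bone, was the only 1 to pass the filter on low values, at 84, 132, 53, 74 and 56 counts. Tg, thyroglobulin, differed from the cartilage genes too, at 50, 13, 57, 12 and 27 counts. The library with the most Tg counts was PM10/OVA, which held the fewest counts of the 6 cartilage genes.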
